A study of Mus musculus with 24 samples.

Results

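The aminoacyl-tRNA synthetases are the enzymes that attach each amino acid to its transfer RNA before translation. They were taken as all genes listed in both deposited tables whose symbol is 1 letter followed by ars, alone or with 1, 2, a or b at the end, together with Eprs and Tarsl2. This gave 38 of the 55421 genes listed. The 17 genes whose names end in 2, other than Tarsl2, formed the mitochondrial class, and the other 21 formed the cytosolic class. Polyadenylated RNA of C57BL/6 mice had been sequenced from 2 tissues of embryonic day 9.5, the whole embryo and the yolk sac. The 6 groups of each tissue were homozygotes (HO), heterozygotes (HE) and wild types (WT) of a Setd2-null line, and HO, HE and WT of a Setd2 catalytic dead line, called CD, with 2 libraries per group and 24 in all. Setd2 encodes a histone methyltransferase whose product is H3 trimethylated at lysine 36. The labels give neither the part of Setd2 that each allele alters nor whether replicates came from different animals or litters, and the p-values therefore cover only the spread seen here, which may be technical.

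As background, the cytosol and the mitochondrion each charge their own transfer RNAs, mostly with enzymes from separate nuclear genes. Gars and Kars are exceptions, since each gene supplies both compartments, and Eprs joins the glutamate and proline activities in 1 protein. The cytosolic phenylalanine enzyme is built from the subunits encoded by Farsa and Farsb, while its mitochondrial counterpart Fars2 works alone. Part of the cytosolic enzymes sit in a multi-synthetase complex held by the scaffolds Aimp1, Aimp2 and Eef1e1. Many cytosolic synthetase genes are known targets of ATF4, the transcription factor of the amino acid and integrated stress responses, which binds with C/EBP partners at composite sites with the core letters TGATGNAA.

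These letters were searched on both strands in RefSeq promoter windows of GRCm38.p6, each reaching from 250 bases before to 50 bases after the annotated start. A window was found for 28 of the 38 genes, with Mars matched as Mars1. Hars, Hars2, Rars, Vars, Cars, Pars2, Nars, Wars and Lars were among the genes with no entry. The letters stood in the windows of 5 of 14 cytosolic genes (Aars, Gars, Iars, Tars and Yars) and of 0 of 14 mitochondrial genes, against 4.51% of all 27025 genes in the promoter table. Stretches of 48 bases around each match are shown to let the sites be compared. They run 5′ to 3′ in the direction of the gene, and capitals mark the match, which reads on the opposite strand in all but Yars.
Aars, 112 bases before the start (chr8:111033710-111033757, + strand): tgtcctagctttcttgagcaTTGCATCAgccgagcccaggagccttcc
Aars, 9 bases past the start base (chr8:111033831-111033878, + strand): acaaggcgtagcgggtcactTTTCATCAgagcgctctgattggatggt
Gars, 30 bases before the start (chr6:55037951-55037998, + strand): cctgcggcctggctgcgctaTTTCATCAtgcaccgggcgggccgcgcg
Iars, 7 bases past the start base (chr13:49682117-49682164, + strand): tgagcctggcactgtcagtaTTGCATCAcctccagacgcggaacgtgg
Tars, 15 bases before the start (chr15:11399646-11399693, - strand): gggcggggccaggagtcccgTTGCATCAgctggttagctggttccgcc
Yars, 3 bases past the start base (chr4:129189886-129189933, + strand): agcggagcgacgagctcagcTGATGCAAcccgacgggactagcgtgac
Of the genes that rose in embryos of both lines, Gars and Tars held a match, Sars held none, and Lars and Nars had no window. Aars, with 2 matches, rose in embryos of neither line, with log2 fold changes of 0.15 in null and 0.13 in CD homozygotes. Its homozygous libraries lay above both wild types in each line, as for 33.3% and 28.6% of all genes. With a term for sex it passed in CD embryos (0.27, edgeR adjusted p = 0.0488). Iars and Yars rose in null embryos with a match, and Dars, Farsb and Mars rose there without a match. The whole windows of Gars and Tars are printed as well.
Gars (chr6:55037751-55038050, + strand): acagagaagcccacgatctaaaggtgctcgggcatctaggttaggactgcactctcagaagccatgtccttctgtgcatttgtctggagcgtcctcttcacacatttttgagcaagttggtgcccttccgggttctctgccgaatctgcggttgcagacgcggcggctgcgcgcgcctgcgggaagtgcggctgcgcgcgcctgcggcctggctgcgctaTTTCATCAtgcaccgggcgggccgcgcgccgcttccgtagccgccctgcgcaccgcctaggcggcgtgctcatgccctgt
Tars (chr15:11399609-11399908, - strand): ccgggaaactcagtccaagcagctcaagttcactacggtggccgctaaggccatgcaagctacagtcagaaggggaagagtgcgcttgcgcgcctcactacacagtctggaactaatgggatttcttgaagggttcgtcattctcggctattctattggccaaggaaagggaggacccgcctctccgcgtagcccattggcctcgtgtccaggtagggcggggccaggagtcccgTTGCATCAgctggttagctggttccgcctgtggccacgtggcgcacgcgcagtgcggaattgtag
A match is a run of letters only, and binding was not measured here.

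In WT embryos the cytosolic transcripts were the more abundant class per unit of annotated length. The deposited FPKM values, fragments scaled by gene length and by library total, had a median of 35.9 over the 21 cytosolic genes and 7.11 over the 17 mitochondrial genes, each gene taken as its mean over the 4 WT libraries of both lines. Gars, the glycine enzyme, stood highest at 84.4 ± 2.12 FPKM (SD, n = 4), followed by Lars2 at 77.0 ± 25.8 and Kars, the lysine enzyme, at 75.9 ± 1.504. These levels overlapped for Lars2 and both of its neighbours, since Lars2 ran between 43.1 and 106 FPKM in single libraries. Behind Kars came Iars at 62.9 ± 2.02 FPKM and Rars at 61.9 ± 1.05, which did not differ beyond their spread. The lowest cytosolic gene was Tarsl2, a threonine enzyme related to Tars, at 1.94 ± 0.18 FPKM, between Cars2 at 2.14 ± 0.15 and Fars2 at 1.72 ± 0.23. Apart from Tarsl2 and Cars, the cysteine enzyme (12.2 ± 0.37 FPKM), every cytosolic gene lay above every mitochondrial gene other than Lars2, the highest of which was Rars2 at 16.6 ± 0.49 FPKM. Over the 4 yolk sac libraries labelled WT the class medians were 37.1 FPKM for cytosolic and 5.17 for mitochondrial genes, Gars again stood first (78.9 ± 7.91 FPKM), and Lars2 ranked 13 at 34.4 ± 12.2 FPKM. The null pair among these had less Setd2 than the CD pair, as given below, and over the 2 CD WT yolk sac libraries alone the medians were 39.8 and 5.21 FPKM, with Gars first at 82.1 FPKM and Lars2 ranked 10 at 41.1 FPKM.

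Changes were tested from the counts, and levels between libraries are given as CPM, counts scaled to a common library total with TMM factors. Totals lay between 23414255 and 27674831 counts per embryo library and between 16400137 and 22113787 per yolk sac library. The tests were edgeR quasi-likelihood F-tests with Benjamini-Hochberg adjustment over the 19215 genes tested in embryos, the 17755 in yolk sacs and the 20543 in both tissues jointly. A gene is said to rise, fall or pass only where the edgeR adjusted p was under 0.05. Counts at an unadjusted edgeR p under 0.05 have no share of all genes beside them, so they cannot be told from the background. All 38 synthetase genes passed the filter on low counts in both tissues. Setd2 itself stood at 93.3 and 104 CPM in null HO embryos, against 232 and 229 CPM in null WT embryos (log2 fold change -1.23, SE 0.07, edgeR adjusted p = 4.67e-07). In CD embryos its change was -0.15 (SE 0.07, edgeR adjusted p = 0.161). In null yolk sacs Setd2 lay at 75.6 and 78.9 CPM in HO, at 114 and 119.7 CPM in HE and at 102 and 114 CPM in the libraries labelled WT, so HE was not lower than the libraries so labelled. CD WT yolk sacs had 178 and 190.4 CPM of Setd2, above both libraries labelled null WT, so Setd2 goes against that label and the label may be wrong. Every null yolk sac fold change over WT rests on these libraries. The sex of the libraries, read from Xist and Y-linked transcripts, differed between CD HO (both female) and CD WT (both male) in embryos and the other way round in yolk sacs. Genotype and sex therefore cannot be told apart in either CD comparison of HO with WT, or in the CD difference between tissues. In the null line both WT libraries of each tissue were female, and HO held 1 library of each sex. Null HE held 1 library of each sex in yolk sacs, but both null HE embryo libraries were male. One CD HE yolk sac library held both kinds of transcript.

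Homozygous null embryos carried more transcript of most cytosolic synthetases and less of some mitochondrial ones. Of the 21 cytosolic genes, 13 rose and 0 fell, and of the 17 mitochondrial genes, 0 rose and 4 fell. Among all genes tested in that comparison 32.7% passed, 16.2% higher and 16.5% lower. The median log2 fold change was 0.26 over the cytosolic genes and -0.05 over the mitochondrial genes, beside 0.015 over all genes. Those that rose were Cars, Dars, Farsb, Gars, Iars, Lars, Mars, Nars, Rars, Sars, Tars, Vars and Yars, and Hars2, Lars2 and Mars2 were among those that fell. Fewer cytosolic genes passed without either null WT library, and a smaller share of all genes passed in those fits as well. Fewer cytosolic genes also passed without null HO replicate 1, where the share of all genes stayed close to that reported. Farsa was at -0.34 in that last fit, and it fell with other size factors, with a term for sex and with no filter.

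**Figure D1:**
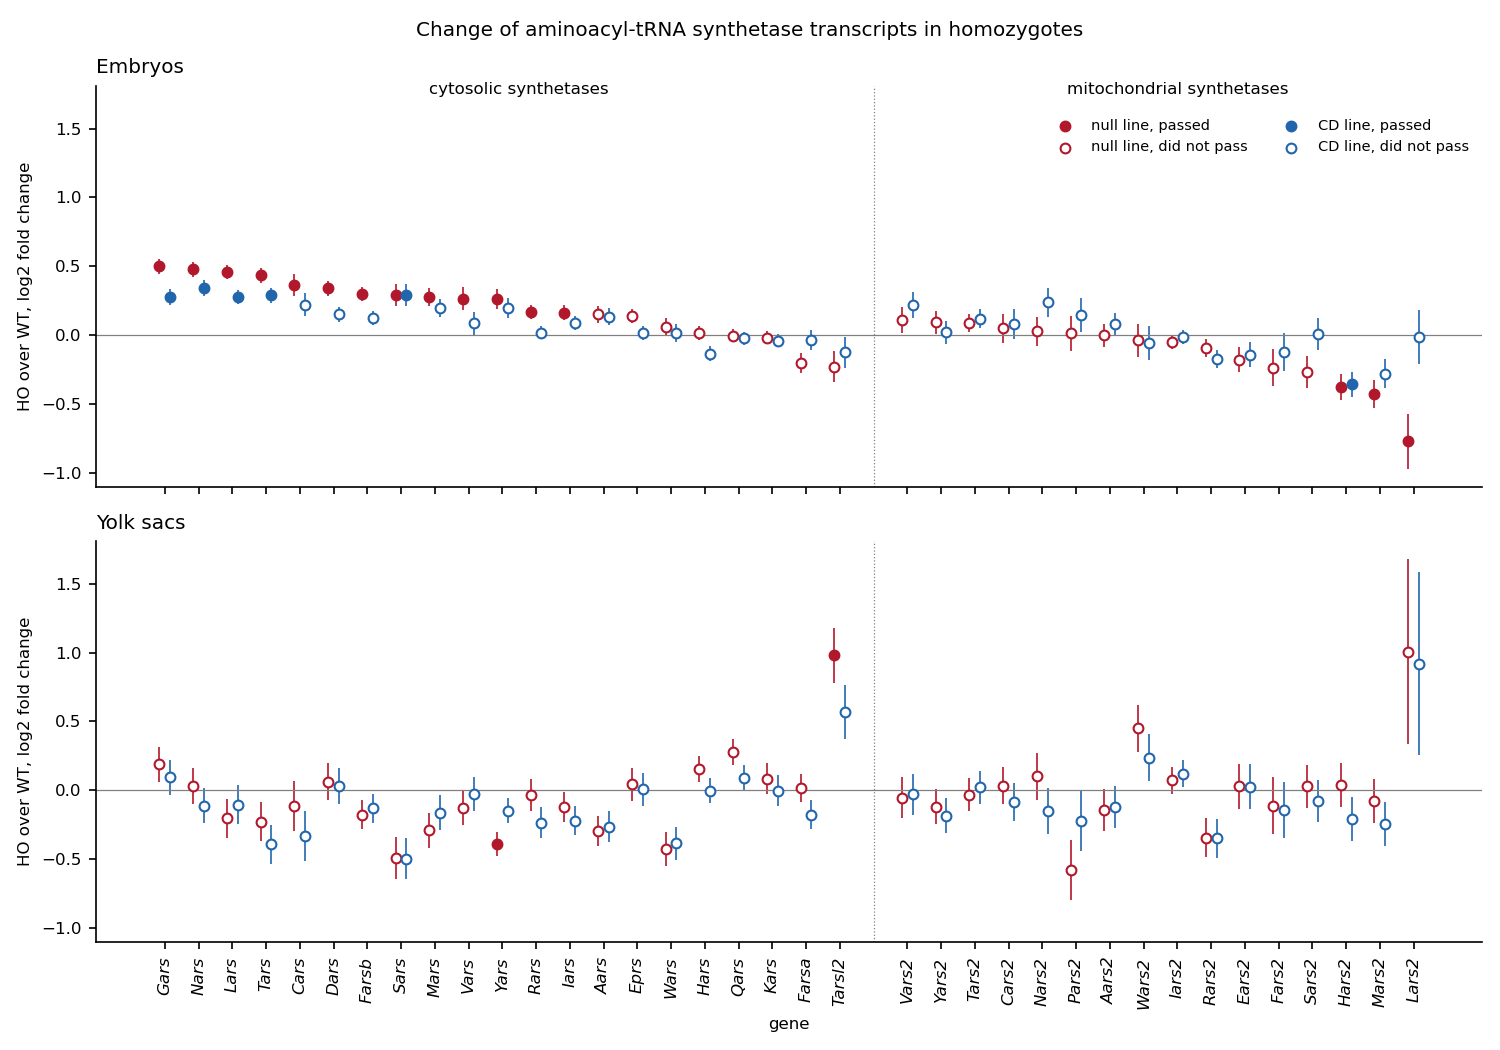
Log2 fold change of HO over WT for the synthetase genes other than 1 mitochondrial gene (x axis, cytosolic left and mitochondrial right, ordered by the null embryo value) in embryos (top) and yolk sacs (bottom). Points are the null line in red and the CD line in blue, bars are 1 SE, and filled points passed an edgeR adjusted p of 0.05. In null embryos 13 cytosolic points are filled above 0 and 3 mitochondrial points below 0.

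The glycine enzyme gene Gars (mm10 chromosome 6, 55038007 to 55079500) had 378 and 347 CPM in null HO embryos, 278 and 262 CPM in null HE and 253 and 260.1 CPM in null WT. Both HO libraries lay above all 4 others, with a log2 fold change over WT of 0.50 (SE 0.06, edgeR adjusted p = 6.79e-05). Lars, the leucine enzyme and the leucine sensor of the mTORC1 pathway (chromosome 18, 42202298 to 42262194), had 244 and 243 CPM in HO, 183 and 185 CPM in HE and 175 and 179 CPM in WT. It rose by 0.46 (SE 0.05, edgeR adjusted p = 4.81e-05), the smallest p of the family, again with no overlap between HO and the other groups. Nars, which charges asparagine (chromosome 18, 64499647 to 64516652), had 337 and 306 CPM in HO, 244 and 254 CPM in HE and 228 and 234 CPM in WT. Tars, the main cytosolic threonine enzyme (chromosome 15, 11382301 to 11399665), had 268 and 253 CPM in HO, 196 and 212 CPM in HE and 189 and 197 CPM in WT. Nars rose by 0.48 (SE 0.06, edgeR adjusted p = 8.36e-05) and Tars by 0.43 (SE 0.05, edgeR adjusted p = 0.000103), and for both the HO libraries stood apart from HE and WT.

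Dars, the aspartate enzyme, had 242 and 258 CPM in null HO embryos, against 191 and 203 CPM in null WT, a rise of 0.34 (SE 0.05, edgeR adjusted p = 0.000561). Farsb, the beta subunit of the phenylalanine enzyme, had 135 and 136 CPM in null HO, against 112 and 108 CPM in null WT, and rose by 0.30 (SE 0.05, edgeR adjusted p = 0.000994). The alpha subunit gene Farsa, singled out after its values were seen, had 76.2 and 64.2 CPM in null HO and 80.7 and 81.0 CPM in null WT, with a log2 fold change of -0.20 (SE 0.07, edgeR adjusted p = 0.0512), so the subunits of 1 enzyme had changes of opposite sign. Cars had 109.8 and 93.9 CPM in null HO, against 77.0 and 81.2 CPM in null WT, and rose by 0.36 (SE 0.08, edgeR adjusted p = 0.00533). Mars, the methionine enzyme, had 180.1 and 154 CPM in null HO, against 139.7 and 136 CPM in null WT, a rise of 0.28 (SE 0.07, edgeR adjusted p = 0.00816). HO and WT libraries did not overlap for Dars, Farsb, Cars or Mars. For Cars, Mars and Farsa the null HO libraries differed among themselves more than the WT libraries did, with replicate 1 the higher. Without null WT replicate 1 the rise of Cars was 0.32 (edgeR adjusted p = 0.055), and that of Mars was 0.16 without null HO replicate 1 (edgeR adjusted p = 0.0594) and 0.26 without null WT replicate 2 (edgeR adjusted p = 0.0693). Mars shares 68 exonic bases with Ddit3 on the opposite strand, Farsb shares 248 with Sgpp2 and Cars shares 211 with Gm15580, and the sources used here do not say whether strand was used in counting, so these values are uncertain. The same holds for Hars and Hars2, which share 195 exonic bases, for Yars, which shares 30 with C77080 on the opposite strand, and, whatever the strand setting, for Aars and Tarsl2, which share 1326 with Exosc6 and 120 with Tm2d3 on the same strand.

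The other cytosolic genes that rose had smaller or less even changes, between 0.16 for Iars and 0.29 for Sars. Rars, the arginine enzyme, had 218 and 223 CPM in null HO, against 194 and 199 CPM in null WT (0.17, SE 0.05, edgeR adjusted p = 0.0223). Iars, Rars, Sars, Vars and Yars each lost their call when 1 of the null HO or WT libraries was left out, and Iars, Sars, Vars and Yars also with a term for sex (edgeR adjusted p of 0.0639 to 0.0864). With HE as control Iars (0.09, edgeR adjusted p = 0.203), Vars (0.20, edgeR adjusted p = 0.0876) and Yars (0.16, edgeR adjusted p = 0.108) did not pass, nor did Rars with DESeq2 (adjusted p = 0.0517) or Iars and Rars with no filter. The 8 cytosolic genes that did not pass ranged from -0.23 for Tarsl2 to 0.15 for Aars. Kars and Qars, which charge lysine and glutamine, were at -0.02 (SE 0.05) and -0.0047 (SE 0.05). Of the 8 synthetases of the multi-synthetase complex, 5 (Dars, Iars, Lars, Mars and Rars) rose, beside 8 of the 13 other cytosolic genes, and the median changes were 0.16 and 0.27.

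Among the mitochondrial genes, Mars2, the mitochondrial methionine enzyme (chromosome 1, 55237177 to 55248470), had 33.2 and 25.7 CPM in null HO embryos, against 39.7 and 39.6 CPM in null WT, a change of -0.43 (SE 0.10, edgeR adjusted p = 0.00722). Hars2, the mitochondrial histidine enzyme (chromosome 18, 36783008 to 36792562), had 24.2 and 28.2 CPM in HO, against 34.1 and 33.9 CPM in WT, a change of -0.38 (SE 0.09, edgeR adjusted p = 0.00829). Its cytosolic partner Hars, which starts beside it on the opposite strand, had 92.8 and 93.0 CPM in HO, against 91.9 and 91.9 CPM in WT. Rars2, the mitochondrial arginine enzyme, had 41.99 and 43.3 CPM in HO, against 44.5 and 46.6 CPM in WT, a change of -0.10 (SE 0.06, edgeR adjusted p = 0.281). For Mars2 and Hars2 the HO libraries lay below every HE and WT library.

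Lars2, the mitochondrial leucine enzyme (chromosome 9, 123366927 to 123462666), had 574 and 631 CPM in null HO embryos, against 1167 and 892 CPM in null WT, and fell by 0.77 on the log2 scale (SE 0.20, edgeR adjusted p = 0.0107). Without null WT replicate 1 the change was -0.57 (edgeR adjusted p = 0.105). Its SE was the largest of the 38 genes in both tissues. In CD WT embryos it stood at 857 and 489 CPM, in CD HO yolk sacs at 260.5 and 1512 CPM and in null HO yolk sacs at 302 and 922 CPM. Gm26917, a predicted gene chosen after its values were seen, stood at 258 and 151 CPM in null HO embryos and 380.2 and 234 CPM in null WT embryos, at 184 and 525 CPM in null HO yolk sacs and at 128 and 256 CPM in the yolk sac libraries labelled null WT. Within each group the replicate with more Lars2 was also the one with more Gm26917, except in null HO and CD HO embryos. Its part in the Lars2 result was not tested. Lars2 stays in every class count, class median and set of pairs below, and only the summed transcripts are also given without it.

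**Figure D2:**
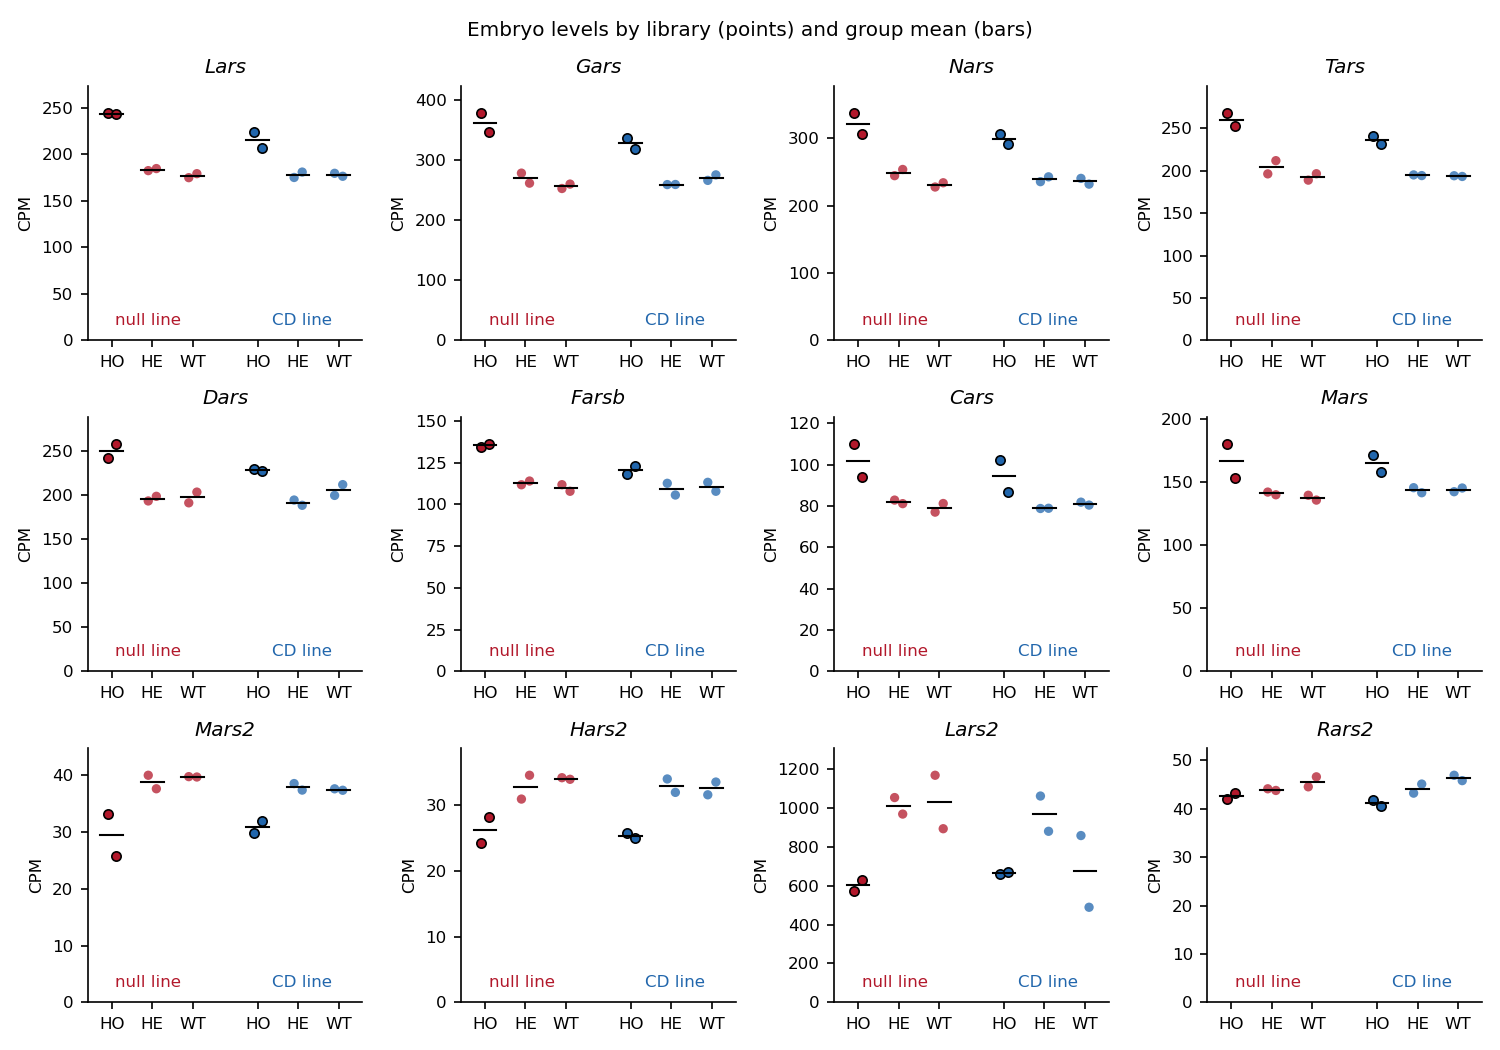
Embryo CPM (y axes, from 0) of 8 cytosolic and 4 mitochondrial genes by group (x axes, HO, HE and WT of the null line in red and the CD line in blue), with 1 point per library and a bar at the mean of 2. In the null line the HO points of the top 2 rows lie above WT and those of Mars2, Hars2, Lars2 and Rars2 below.

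Homozygous CD embryos showed fewer changes past the threshold. Both CD HO libraries were female and both CD WT libraries male, so genotype and sex cannot be told apart in this comparison. Of the 21 cytosolic genes, 5 rose (Gars, Lars, Nars, Sars and Tars) and 0 fell, and of the 17 mitochondrial genes, 0 rose and 1 fell (Hars2), while 16.1% of all genes passed, 6.92% higher and 9.14% lower. All 6 had also passed in null embryos, in the same direction. With a term for sex, which rests on the groups that held both sexes, these 6 and Aars passed, where 5.79% of all genes did. The median log2 fold change was 0.13 over cytosolic genes and -0.01 over mitochondrial genes, beside 0.0024 over all genes. With HE as control 6 cytosolic genes rose and 1 fell, where 22.1% of all genes passed. Cars and Dars were gained, Hars fell (-0.20, edgeR adjusted p = 0.0215) and Sars did not pass (0.24, edgeR adjusted p = 0.0521). Without CD HO replicate 1 fewer cytosolic genes passed, and a smaller share of all genes passed as well. Hars2 did not pass without CD HO replicate 1 (change of -0.39), CD HO replicate 2 (-0.35) or CD WT replicate 2 (-0.33).

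Nars had 306 and 292 CPM in CD HO embryos, against 240.4 and 232 CPM in CD WT, a rise of 0.34 (SE 0.06, edgeR adjusted p = 0.00203). Lars had 224 and 207 CPM in CD HO, against 179.7 and 177 CPM in CD WT (0.28, SE 0.05, edgeR adjusted p = 0.00334). Tars had 241 and 232 CPM in CD HO, against 194 and 193 CPM in CD WT (0.29, SE 0.05, edgeR adjusted p = 0.00380). For these genes both CD HO libraries lay above every CD HE and CD WT library. Gars had 337 and 318 CPM in CD HO, against 266 and 275 CPM in CD WT (0.27, SE 0.06, edgeR adjusted p = 0.00717; 0.0736 without CD HO replicate 1). Sars, the serine enzyme, chosen after its values were seen because it passed in both lines, had 168 and 159 CPM in CD HO, against 138 and 129 CPM in CD WT (0.29, SE 0.08, edgeR adjusted p = 0.0284), a call that was lost when any 1 of these 4 libraries was left out. In the null line it had 186 and 154 CPM in HO, against 134 and 143 CPM in WT (0.29, SE 0.08, edgeR adjusted p = 0.0155), lost without HO replicate 1 or WT replicate 1 and with a term for sex (edgeR adjusted p = 0.0657). Hars2 had 25.8 and 24.9 CPM in CD HO, against 31.6 and 33.5 CPM in CD WT, and fell by 0.36 on the log2 scale (SE 0.09, edgeR adjusted p = 0.0220). Hars had 82.5 and 87.9 CPM in CD HO, against 95.4 and 91.8 CPM in CD WT (-0.14, SE 0.05, edgeR adjusted p = 0.107).

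The other genes that passed in null embryos had CD changes of the same sign, none of which passed. Dars had 229.6 and 227 CPM in CD HO, against 199.7 and 212 CPM in CD WT (0.15, SE 0.05, edgeR adjusted p = 0.0773). Mars2 had 29.8 and 31.8 CPM in CD HO, against 37.5 and 37.3 CPM in CD WT (-0.28, SE 0.10, edgeR adjusted p = 0.0847). CD HO and CD WT libraries did not overlap for Dars or Mars2. Cars, Mars and Farsb were at 0.22, 0.20 and 0.13, Rars at 0.02 with 207 and 205 CPM in CD HO and 201 and 206 CPM in CD WT, and Lars2 at -0.02 (SE 0.20). Rars2 had 41.7 and 40.5 CPM in CD HO, against 46.9 and 45.8 CPM in CD WT (-0.17, SE 0.06, edgeR adjusted p = 0.0887). Within the multi-synthetase complex 1 of 8 genes rose, beside 4 of the 13 other cytosolic genes.

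The lines were compared by the difference between their homozygous changes. In embryos 0 of the 38 genes passed (CD minus null; 0.0208% of all genes passed), also 0 with DESeq2, and 6 had an unadjusted p under 0.05 (among them Dars, Farsb, Gars, Lars and Lars2). Without CD WT replicate 1 the count was 2 (Lars2 among them), and without null HO replicate 1 it was 1 (Sars2), but in these fits 5.19% and 4.99% of all genes passed. In yolk sacs 0 passed (0.0282% of all genes), 0 with DESeq2 and 0 at an unadjusted p under 0.05. The smaller number of calls in CD embryos is therefore not shown to be a difference between the alleles. The fitted difference ran below 0 for 18 of the 21 cytosolic genes, with a median of -0.12, and above 0 for 14 of the 17 mitochondrial genes, with a median of 0.08, beside -0.0068 over all genes.

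Heterozygotes were compared with WT in the same way, and 0 of the 38 genes passed in null embryos (0.0104% of all genes), CD embryos (0.0156%), null yolk sacs (0%) and CD yolk sacs (0%). DESeq2 also gave 0 in each. Both null HE embryo libraries were male and both null WT embryo libraries female, so genotype and sex cannot be told apart in that comparison. At an unadjusted p under 0.05 there was 1 gene in null embryos (Hars), 1 in CD embryos (Lars2) and 0 in either line's yolk sacs. Without CD WT replicate 1, the one CD WT embryo library left had the lower Lars2, and Lars2 passed in CD HE embryos (0.99, SE 0.14, edgeR adjusted p = 0.00191), as did 4.2% of all genes in that fit. The 21 cytosolic genes in null HE embryos had log2 fold changes of -0.02 to 0.14, of which 18 were above 0, and in CD HE embryos of -0.10 to 0.06, of which 9 were above 0.

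Each mitochondrial gene was then set beside the cytosolic gene for the same amino acid, giving 18 pairs. Eprs stood in the glutamate and the proline pair and Fars2 in the pairs of both subunits, so the pairs are not independent and no test was made. In null embryos the cytosolic change exceeded the mitochondrial change in 18 of 18 pairs, with a median difference of 0.32 on the log2 scale and a range of 0.03 (Farsa and Fars2) to 1.23 (Lars and Lars2). In CD embryos this held in 16 of 18 pairs, the exceptions being Vars with Vars2 and Eprs with Pars2, and the median was 0.16. In null yolk sacs it held in 5 of 18 pairs with a median of -0.11, and in CD yolk sacs in 9 of 18 with a median of -0.0066.

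**Figure D3:**
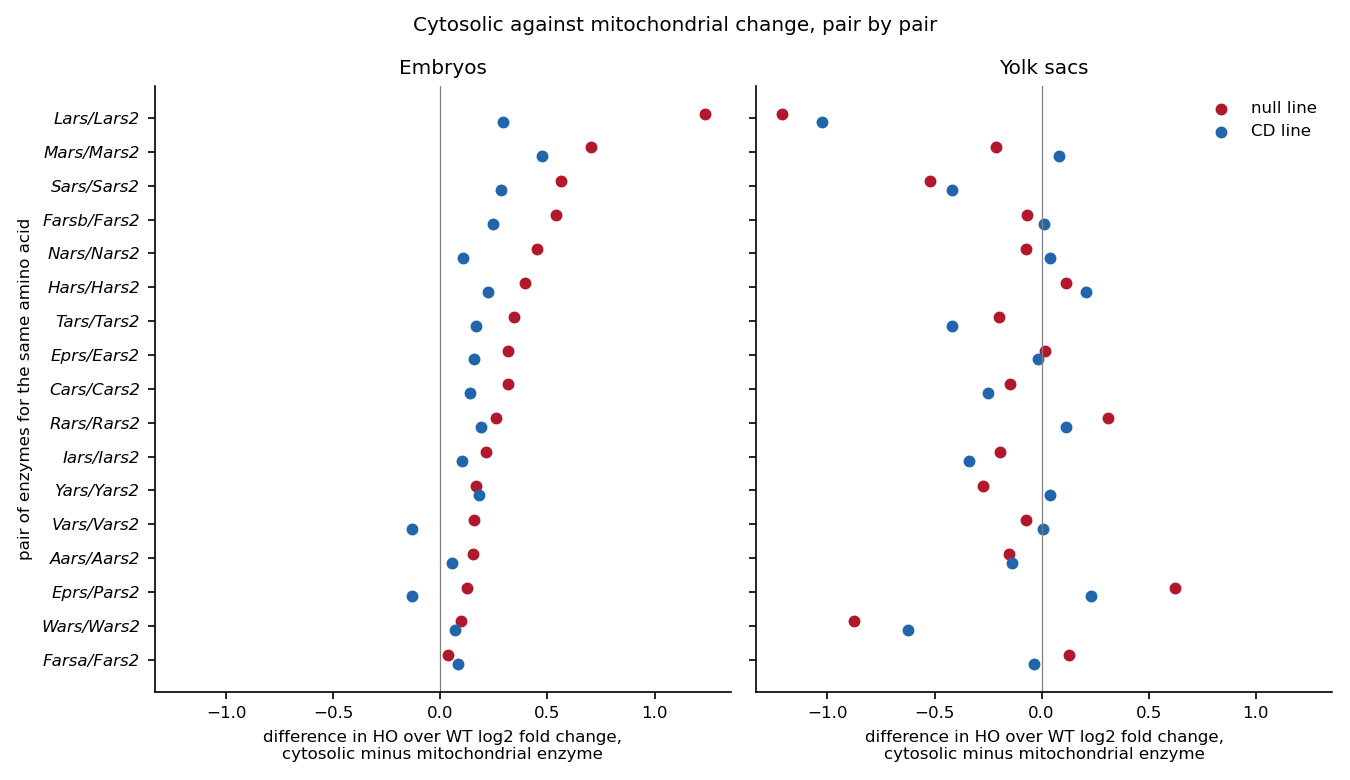
HO over WT log2 fold change of the cytosolic gene minus that of the mitochondrial gene for the same amino acid (x axis), for 17 of the 18 pairs (y axis, ordered by the null embryo value), null line in red and CD line in blue. All 17 null embryo points lie above 0, against 5 null yolk sac points.

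The summed transcripts of the classes were compared by library. Leaving out Lars2, a choice made after its values were seen, the ratio of cytosolic to mitochondrial summed FPKM was 9.41 and 9.52 in null HO embryos, 7.98 and 7.75 in null HE and 7.40 and 7.35 in null WT. It was 8.75 and 8.58 in CD HO embryos, 7.50 and 7.50 in CD HE and 7.64 and 7.73 in CD WT. Both HO groups stood above all 8 other embryo libraries. The cytosolic sum was 946 ± 37.1 FPKM in null HO, against 814 ± 7.53 in null WT, and 911 ± 19.6 FPKM in CD HO, against 825 ± 11.4 in CD WT (SD, n = 2 each). The mitochondrial sum without Lars2 was 103 and 96.6 FPKM in null HO, against 109 and 112 FPKM in null WT, below both WT libraries. In CD embryos it was 106 and 105 FPKM in HO, against 109 and 106 FPKM in WT. With Lars2 included the ratio was 6.16 ± 0.20 in null HO, against 4.002 ± 0.34 in null WT, but 5.52 ± 0.10 in CD HO, against 4.98 ± 0.72 in CD WT, where the HO libraries stood at 5.59 and 5.45 and the WT libraries at 4.47 and 5.49, so that 1 WT library lay between the HO libraries and the other below them. In yolk sacs the ratio without Lars2 was 8.20 to 9.25 in every library, and the HO groups overlapped with the others. In whole tissues, fewer cells of a type and less RNA per cell cannot be told apart.

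**Figure D4:**
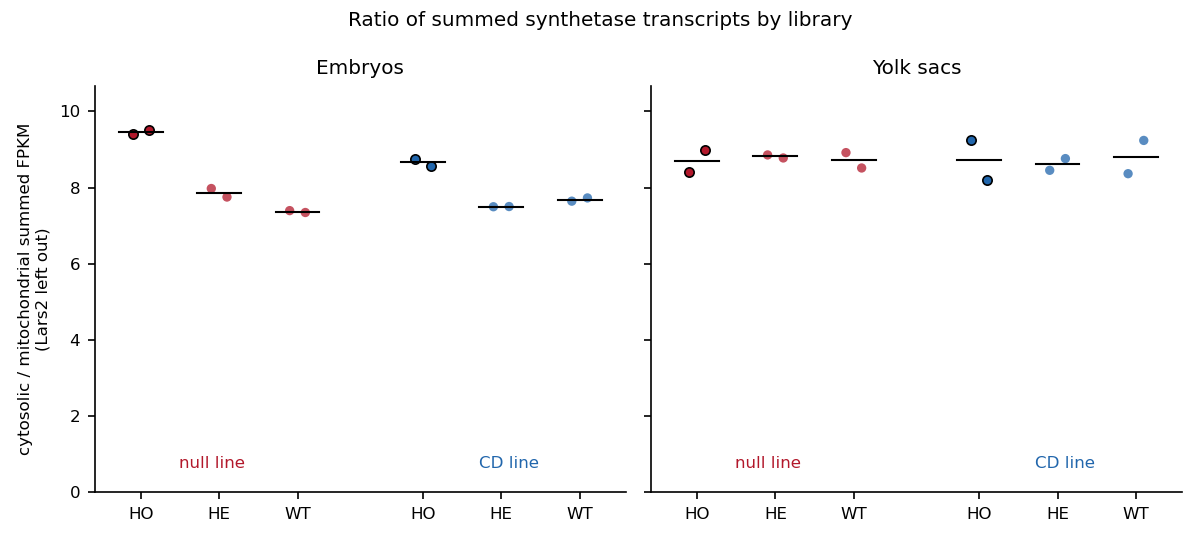
Ratio of summed cytosolic to summed mitochondrial synthetase FPKM, Lars2 left out (y axis, from 0), by group (x axis, HO, HE and WT of the null line in red and the CD line in blue) in embryos (left) and yolk sacs (right). Points are libraries and bars are means of 2. HO embryos lie at 8.58 to 9.52 and other embryos at 7.35 to 7.98.

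Some markers of other cell types differed between the embryo groups as well. The counts below stand beside 16.2% of all genes higher and 16.5% lower in null HO embryos, and 6.92% higher and 9.14% lower in CD HO embryos. The 9 visceral endoderm markers summed to 11.5 to 16.2 CPM in CD HO embryos, with Apoa4 at 0, against 102 to 769 CPM in CD WT, and 8 of the 8 tested fell. CD HE embryos lay at 59.2 to 65.5 CPM, below both CD WT libraries, which differed widely from each other. In null embryos they summed to 22.02 to 79.7 CPM in HO and 42.9 to 51.8 CPM in WT, and 1 of the 8 tested fell. The 4 somite markers summed to 29.6 to 57.9 CPM in null HO and 141 to 142 CPM in null WT (4 of 4 fell), and to 49.998 to 60.8 CPM in CD HO and 103 to 131 CPM in CD WT (3 of 4 fell). The 5 primitive erythroid markers summed to 90.7 to 1275 CPM in null HO and 1968 to 2906 CPM in null WT (1 of 5 fell), and to 586 to 1537 CPM in CD HO and 1112 to 2181 CPM in CD WT (0 of 5 passed). The 5 trophoblast and decidua markers summed to 1.77 to 18.1 CPM in null HO and 0.418 to 0.425 CPM in null WT, Tpbpa being at 0 (3 of the 3 tested rose), and to 2.87 to 3.10 CPM in CD HO and 1.08 to 1.37 CPM in CD WT (1 of the 3 tested rose). Neural tube markers summed to 92.1 to 118 CPM in null HO and 161 to 178 CPM in null WT (2 of 4 fell), and to 126 to 152 CPM in CD HO and 165 to 177 CPM in CD WT (2 of 4 fell). Cardiac markers summed to 605 to 892 CPM in null HO and 536 to 593 CPM in null WT (2 of 4 rose), and to 704 to 705 CPM in CD HO and 606 to 736 CPM in CD WT (0 of 4 passed). The share of counts from mitochondrially encoded transcripts was 1.56% to 1.62% in null HO, against 1.96% to 1.98% in null WT, and 1.46% to 1.52% in CD HO, against 1.91% to 1.98% in CD WT. The part of these in the synthetase changes was not tested.

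In yolk sacs few synthetases passed. Of the 21 cytosolic genes, 1 rose (Tarsl2) and 1 fell (Yars) in null HO relative to the libraries labelled WT, and 0 of the 17 mitochondrial genes passed, where 6.27% of all genes did, 2.3% higher and 3.97% lower. In CD HO yolk sacs 0 of 38 passed, where 3.15% of all genes did, 1.27% higher and 1.89% lower, with 6 at an unadjusted p under 0.05. DESeq2 called 1 cytosolic gene there, and 6.48% of all genes. The medians over cytosolic genes were -0.11 in the null line and -0.13 in the CD line, and those over mitochondrial genes 0.03 and -0.12. Without CD HO replicate 1 there were 3 cytosolic calls (Rars, Tars and Wars) and 1 mitochondrial call (Rars2) in the CD line, all lower, and without CD WT replicate 1 there was 1 cytosolic call, Sars. Yolk sac changes had wider errors, the biological coefficient of variation over all genes being 0.165 there and 0.0870 in embryos. Yolk sac libraries carried visceral endoderm markers at 27442 to 46517 CPM in sum, with neural tube and somite markers at or near 0. The sum was 29496 to 33051 CPM in null HO and 40136 to 43044 CPM in those labelled null WT (4 of 9 markers fell), and 27442 to 36661 CPM in CD HO and 39024 to 42015 CPM in CD WT (3 of 9 fell), and its part in the synthetase values was not tested.

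Tarsl2 (chromosome 7, 65644898 to 65692091) had 19.9 and 17.3 CPM in null HO yolk sacs, 9.56 and 8.62 CPM in null HE and 8.68 and 10.1 CPM in the libraries labelled null WT. It rose by 0.98 (SE 0.20, edgeR adjusted p = 0.0143), with HO clear of the other libraries. In the CD line it had 18.8 and 20.5 CPM in HO, 11.5 and 14.2 CPM in HE and 11.1 and 15.3 CPM in WT (0.57, SE 0.20, edgeR adjusted p = 0.130). Tars, its close relative, had 169 and 177 CPM in null HO yolk sacs, against 202 and 204 CPM in those labelled null WT (-0.23, SE 0.14, edgeR adjusted p = 0.381). Yars, the tyrosine enzyme (chromosome 4, 129189760 to 129219607), had 126 and 133 CPM in null HO, 164 and 165 CPM in null HE and 171 and 168 CPM in the libraries labelled null WT, a change of -0.39 (SE 0.09, edgeR adjusted p = 0.0239). In CD yolk sacs it had 171 and 168 CPM in HO, against 190.1 and 186 CPM in WT (-0.15, SE 0.09, edgeR adjusted p = 0.382). HO did not overlap with WT for either gene in either line. Neither call held without null HO replicate 1 or without either library labelled null WT (edgeR adjusted p of 0.0798 to 0.124 for Tarsl2 and 0.129 to 0.162 for Yars), nor did that of Yars without null HO replicate 2 (edgeR adjusted p = 0.0601) or with a term for sex (edgeR adjusted p = 0.0513). Against HE in place of the libraries labelled WT, null HO yolk sacs had Tarsl2 at 1.03 (SE 0.20, edgeR adjusted p = 0.0106) and Yars at -0.35 (SE 0.09, edgeR adjusted p = 0.0331), and Sars also passed (-0.53, SE 0.15, edgeR adjusted p = 0.0480), where 8.19% of all genes did.

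Sars had 135 and 145 CPM in null HO yolk sacs, against 196 and 197 CPM in those labelled null WT (-0.49, SE 0.15, edgeR adjusted p = 0.0746). In CD yolk sacs it had 164 and 139 CPM in HO, against 178 and 251 CPM in WT (-0.50, SE 0.15, edgeR adjusted p = 0.0905). Wars, the tryptophan enzyme, was at -0.43 in null and -0.39 in CD yolk sacs (SE 0.12 each), and at -0.23 in null HO against HE (SE 0.12, edgeR adjusted p = 0.285). The genes that rose in embryos of both lines had yolk sac changes, null line first, of 0.19 and 0.09 for Gars, -0.20 and -0.10 for Lars and 0.03 and -0.11 for Nars, none of which passed. CD WT replicate 2 held the highest level of the yolk sac libraries for Lars (220.5 CPM) and Nars (420.3 CPM).

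Counting the genes whose HO libraries both lay to one side of both WT libraries gave counts that need no model. In null embryos 16 cytosolic genes lay above and 2 below, and 1 mitochondrial gene above and 9 below, where 33.3% of all genes lay above and 31.9% below. In CD embryos the counts were 11 and 2 for cytosolic and 5 and 5 for mitochondrial genes (28.6% and 28.3% of all genes). In null yolk sacs they were 5 and 10 for cytosolic and 2 and 2 for mitochondrial genes (29.7% and 27% of all genes), and in CD yolk sacs 2 and 7 for cytosolic and 1 and 3 for mitochondrial genes (24.3% and 23.9%).

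The difference between the homozygous changes of the tissues was tested jointly over all 24 libraries, as the yolk sac change minus the embryo change. In the null line 11 of 38 genes passed, where 10.1% of all genes did, 4.28% higher and 5.83% lower. Lower in yolk sacs were 9 cytosolic genes (Aars, Farsb, Lars, Mars, Nars, Sars, Tars, Wars and Yars), and Tarsl2 was among the 2 higher. Yars had the smallest p, with a difference of -0.68 (SE 0.11, edgeR adjusted p = 0.000865), and Sars the largest difference downward at -0.82 (SE 0.17, edgeR adjusted p = 0.00588). Lars differed by -0.70 (SE 0.15, edgeR adjusted p = 0.00527) and Tars by -0.70 (SE 0.15, edgeR adjusted p = 0.00748). The median was -0.43 over cytosolic genes and 0.09 over mitochondrial genes, beside -0.0082 over all genes. The count was 7 without null embryo HO replicate 1, null embryo WT replicate 2 or the yolk sac library labelled null WT replicate 1. With HE in place of WT in both tissues 11 genes passed (11.7% of all genes), Wars no longer among them (-0.26, edgeR adjusted p = 0.269) and Yars2 gained (-0.50, SE 0.14, edgeR adjusted p = 0.0274).

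In the CD line 2 of 38 genes passed, where 2.94% of all genes did, 1.79% higher and 1.15% lower. Sars differed by -0.79 (SE 0.17, edgeR adjusted p = 0.0199) and Tars by -0.69 (SE 0.15, edgeR adjusted p = 0.0233), the same direction as in the null line. The median was -0.26 over cytosolic genes and -0.09 over mitochondrial genes. The CD count rested on single libraries, but the share of all genes that passed also changed when 1 of them was left out. Among those fits, the difference was -0.83 to -0.54 where Sars lost its call and -0.71 to -0.45 where Tars lost its call. With a term for sex the count was 0, where 0.59% of all genes passed.

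**Figure D5:**
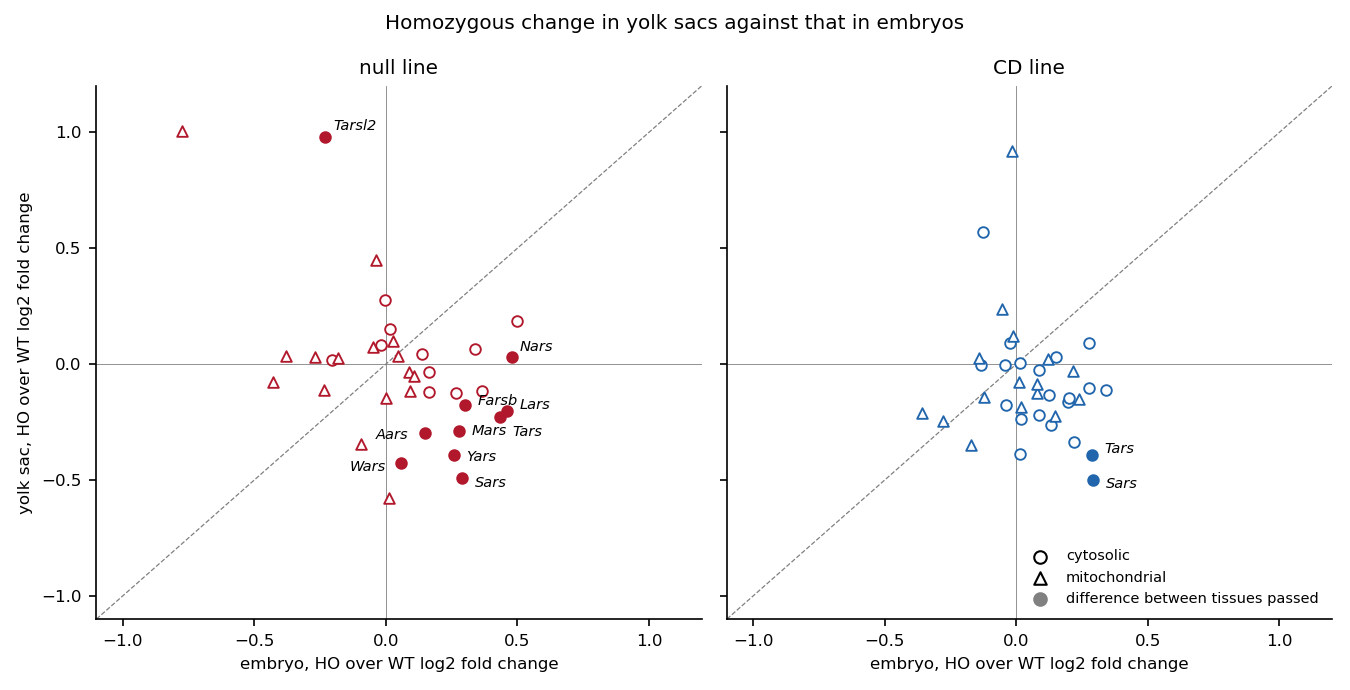
HO over WT log2 fold change in yolk sacs (y axis) against that in embryos (x axis) for the synthetase genes other than 1 mitochondrial gene, null line left and CD line right, circles cytosolic and triangles mitochondrial. Filled points passed the joint test of the difference, 10 in the null line and 2 in the CD line, and the dashed line marks equal changes.

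Yolk sacs labelled WT were set against WT embryos of both lines to describe the family across tissues. Tissue and table cannot be told apart here, since each tissue was deposited as its own table. Of the 21 cytosolic genes 16 were higher and 2 lower in yolk sacs, and of the 17 mitochondrial genes 6 were higher and 2 lower, where 71.7% of all genes passed, 34.2% higher and 37.4% lower. The largest cytosolic differences were 0.91 for Yars (SE 0.06, edgeR adjusted p = 1.97e-11), 0.89 for Sars (SE 0.09, edgeR adjusted p = 2.21e-08), 0.83 for Farsb and 0.82 for Nars. Kars (-0.18, SE 0.06) and Wars (-0.32, SE 0.07) were lower. Among the mitochondrial genes Cars2 (0.86, SE 0.09), Iars2, Fars2, Rars2, Nars2 and Tars2 were higher and Yars2 (-0.39, SE 0.07) was among the 2 lower. Iars2 shares 2034 exonic bases with Rab3gap2, Fars2 501 with Nrn1, Cars2 422 with Naxd and Nars2 284 with C230038L03Rik. All of these lie on the opposite strand, so the values of these genes are uncertain too. The median over all genes was -0.08, so a difference of that size marks no departure from the bulk of genes. In the CD line alone, without the libraries labelled null WT, 16 cytosolic genes were higher and 1 (Wars) lower and 7 mitochondrial genes higher and 1 lower, where 61.5% of all genes passed, and Kars was at -0.11 (edgeR adjusted p = 0.271).

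Other genes of transfer RNA charging and use were described from lists, whose counts stand against 16.2% of all genes higher and 16.5% lower in null embryos and 6.92% higher and 9.14% lower in CD embryos. In null HO embryos 0 of the 3 complex scaffolds (Aimp1, Aimp2 and Eef1e1; changes of -0.08 to 0.04) and 0 of 4 editing and synthetase-like factors passed. Of 13 genes of transfer RNA maturation and export 4 rose and 1 fell, among them Elac2, the 3′ end nuclease (0.57, SE 0.09, edgeR adjusted p = 0.000584), Pop1 of RNase P (0.49, SE 0.07, edgeR adjusted p = 0.000420) and Xpot, the transfer RNA exporter (0.29, SE 0.05, edgeR adjusted p = 0.00197). Of 6 cytosolic elongation factor genes 2 rose, Eef1b2 (0.28, SE 0.05) and Eef1g (0.33, SE 0.05). Of 13 partners of mitochondrial charging and translation 0 rose and 2 fell, the initiation factor Mtif2 (-0.42, SE 0.07, edgeR adjusted p = 0.000729) and the amidotransferase subunit Gatc (-0.56, SE 0.10, edgeR adjusted p = 0.000969). In CD HO embryos the counts were 0 of 3, 0 of 4, 2 higher of 13 (Elac2 and Pop1), 2 higher of 6 (Eef1b2 and Eef1g) and 2 lower of 13 (Gatc and Mtif2). The median of each of these 5 lists lay between -0.04 and 0.16 in the embryo comparisons of HO with WT.

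The ATF4 list held 29 genes, of which 26 passed the filter on low counts in embryos. In null HO embryos 16 rose and 1 fell, with a median of 0.44, and in CD HO embryos 14 rose and 0 fell, with a median of 0.49, beside medians of 0.015 and 0.0024 over all genes, of which 16.2% rose and 16.5% fell in the null line and 6.92% rose and 9.14% fell in the CD line. Sesn2, a leucine-responsive inhibitor of mTORC1, had 110.5 and 78.3 CPM in null HO, against 18.4 and 15.5 CPM in null WT, and 80.9 and 72.7 CPM in CD HO, against 18.9 and 21.03 CPM in CD WT. It rose by 2.48 (SE 0.15, edgeR adjusted p = 6.57e-07) in the null line. Chac1, a glutathione-degrading enzyme, had 12.03 and 6.63 CPM in null HO, against 0.502 and 0.380 CPM in null WT, and Stc2 rose by 1.69 (SE 0.20, edgeR adjusted p = 7.77e-05). Among list members named after their values were seen, Atf4 itself rose by 0.31 in the null line and 0.35 in the CD line, while Cebpg fell in the null line (-0.18). Asns, which makes asparagine, rose by 0.82 and 0.72, beside the rise of Nars described above. In yolk sacs 0 of 27 tested genes passed in either line, with medians of -0.20 in null HO and -0.15 in CD HO and 7 genes at an unadjusted p under 0.05 in each. Against HE in place of the libraries labelled null WT, 1 of 27 passed, higher, with a median of -0.14. The yolk sac change minus the embryo change was lower for 9 of 28 genes in the null line and for 6 of 28 in the CD line, where 5.83% and 1.15% of all genes were lower, and higher for 0 in either line. The part of these genes in the synthetase changes was not tested.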

How the data were processed

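Each tissue had 1 deposited table of gene counts beside FPKM for its 12 libraries. Per the submitters' processing notes, the authors used fastp 0.22.0, HISAT2 2.2.1, featureCounts 2.0.1 and DESeq2 1.32.0 with genome mm10, while the annotation release and the strand setting are stated nowhere in the sources used here. The deposited FPKM equalled count over length and library total, with 0 values off at a relative tolerance of 0.001. Counts were tested with edgeR 4.0.16 (TMM, filterByExpr with a minimum count of 10, quasi-likelihood F-test, 1 coefficient per group, Benjamini-Hochberg over all genes tested), in R 4.3.3, by tissue or over both tables joined. The scripts were tested on simulated data. DESeq2 1.42.0, other size factors, no filter, a sex term, a replicate block, HE as control and leaving out each library were alternatives. Members and lists were chosen with earlier results of these data known. Values by library are given for the up to 12 members and 5 mitochondrial members of smallest p over the 4 homozygous comparisons and the partners of these 5. The values of 1 mitochondrial gene are not reported here, though every count and median includes it. Context lists give up to 3 members of smallest p. Gene positions are from an mm10 annotation. Depth limits counting error only. No replicate pair agreed within sampling noise.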

Additional observations from a re-analysis of the deposited data

Results flagged for a closer look

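For 11 genes in the null line, 10 of them given here, and 2 in the CD line the homozygous change differed between the tissues by the joint edgeR test of that difference (yolk sac change minus embryo change, log2 scale, 2 libraries per group). In the null line the difference was -0.48 for Aars, -0.51 for Farsb, -0.70 for Lars, -0.60 for Mars, -0.48 for Nars, -0.82 for Sars, -0.70 for Tars, -0.52 for Wars and -0.68 for Yars. It was 1.18 for Tarsl2, whose yolk sac change lay above the embryo change. In the CD line it was -0.79 for Sars and -0.69 for Tars. The adjusted p of Nars did not stay under 0.05 without 7 of the 8 null libraries in the comparison taken singly, and those of Aars, Mars and Wars did not without some of them. Whether these differences come from the tissues or from tables made separately was not tested.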

How the results depend on the processing

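No call of a single synthetase gene changed direction under the alternatives run. With HE as control the medians of 2 lists outside the family changed sign in embryos, for editing and synthetase-like factors to -0.06 in null and -0.11 in CD embryos (0.03 and 0.10 against WT) and for transfer RNA maturation and export to -0.0066 in null embryos (0.06 against WT). The calls of single genes stayed on the same side of the threshold in 456 cases and fell below it in 78. Setting the CD line alone for the WT tissues and HE as control for the null tissue difference were added after the data were seen. Class medians kept their sign with other size factors and with Gars, Kars and Tarsl2 left out. With HE as control the mitochondrial median in CD HO yolk sacs changed sign, to 0.01 (-0.12 against WT). The cytosolic median there was -0.04 with HE as control (-0.13 against WT). With no filter on low counts, calls numbered 3 for mitochondrial genes in CD HO embryos (1 as reported), 1 in CD HE embryos (0), 1 for CD minus null in embryos (0), 4 cytosolic (2) and 1 mitochondrial (0) in null HO yolk sacs, 2 cytosolic (0) and 1 mitochondrial (0) in CD HO yolk sacs, and 5 for the CD tissue difference (2). The shares of all genes that passed there were, in that order, 10.3% (16.1% as reported), 1.9% (0.0156%), 2.59% (0.0208%), 6.18% (6.27%), 5% (3.15%) and 3.41% (2.94%). With DESeq2 calls numbered 4 cytosolic in null HO yolk sacs, 1 cytosolic in CD HO yolk sacs and 6 for the CD tissue difference. DESeq2 also called more of all genes there, 8.77%, 6.48% and 5.71%. With a sex term calls numbered 1 cytosolic in null HO yolk sacs and 0 for the CD tissue difference, where 4.37% and 0.59% of all genes passed. With HE as control calls numbered 6 cytosolic higher, 1 cytosolic lower and 2 mitochondrial lower in CD HO embryos, where 22.1% of all genes passed. Leaving out 1 library at a time, calls ranged from 8 to 12 (cytosolic, null HO embryos), 3 to 4 and 0 to 1 (cytosolic and mitochondrial, CD HO embryos), 0 to 1 (CD HE embryos), 0 to 2 (CD minus null, embryos), 0 to 1 (cytosolic, null HO yolk sacs), 0 to 3 and 0 to 1 (cytosolic and mitochondrial, CD HO yolk sacs), 7 to 11 (null tissue difference) and 0 to 6 (CD tissue difference). The share of all genes that passed changed in these fits too, so the ranges cannot be read as particular to the synthetases. The lone library of such a group was assumed to vary like the others. With the replicate number as a block the counts were 13 cytosolic and 4 mitochondrial in null HO embryos, and the numbers did not pair the samples.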
